A study of Danio rerio with 6 samples.

Results

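Immediate early genes of the Fos, Jun, Egr and Ier2 families were followed by bulk RNA-seq of intact zebrafish embryos (Danio rerio) collected at 22 hours post fertilization. The set comprised 10 genes of the 31484 counted, chosen by name: fosab, fosb, fosl2, jun, junba, junbb, egr1, egr3, ier2a and ier2b. All 10 were found among the gene IDs, and all 10 passed the filter on low counts, as did 20415 genes in all. The compared groups were embryos with the genotype synpo2 -/- (mutants) and embryos with the genotype synpo2 wt/wt (wild type), with 3 biological replicates each and no treatment named. synpo2 encodes synaptopodin-2, which binds actin and sits at the Z-disc of striated muscle. The labels give neither the lesion nor the number of embryos per library.

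Immediate early genes are switched on within minutes of a stimulus by factors that are already present in the cell. Many of them carry binding sites for serum response factor (SRF), which acts with ternary complex factors under ERK signalling or with myocardin-related factors that sense the pool of unpolymerised actin. Fos and Jun proteins pair through leucine zippers to form the AP-1 transcription factor, Egr proteins are zinc finger factors, and Ier2 is a small nuclear protein. That these genes answer to SRF is known mainly from stimulated mammalian cells. The labels name no stimulus, and the embryos went into Trizol after euthanasia with tricaine.

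Library totals ran from 32714170 to 34227596 counts in mutants and from 32850819 to 142789686 in wild type, where replicate 1 was the deepest. synpo2b, the copy of synpo2 that the gene names give, was at 1.52 to 1.71 CPM (counts scaled to library size) in mutants and at 3.91 to 6.09 CPM in wild type. Markers of the tissues of a whole embryo were present: muscle, neuron, red blood cell, yolk, epidermis, notochord, lens and myeloid lists were all detected, and no listed marker was at 0 in every library. In such bulk samples, fewer cells of a type and less RNA per cell cannot be told apart. The summed level of 13 fast muscle markers was 4393 to 7533 CPM in mutants and 8155 to 12260 CPM in wild type, and all 13 had a negative log2 fold change. The summed level of 7 yolk syncytial layer genes was 972 to 10601 CPM in mutants, highest in replicate 1, and 1361 to 3781 CPM in wild type. These ranges overlapped, and all 7 genes had a positive log2 fold change, unlike any other list. The summed level of 4 lens markers was 3.49 to 12.2 CPM in mutants and 14.1 to 41.5 CPM in wild type, with a negative log2 fold change for 3 of the 3 tested. The summed level of 9 neuron markers was 674 to 964 CPM in mutants and 829 to 1148 CPM in wild type, and all 9 had a negative log2 fold change (median -0.34). Log2 fold changes were negative for 5 of 5 red blood cell, 3 of 6 epidermis, 4 of 5 notochord and hatching gland and 3 of 4 myeloid markers, and summed ranges were apart for muscle and lens alone of the 8 lists. Whether these differences in tissue content play a part in the values below was not tested.

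Compared per length, the genes spanned more than 2 orders of magnitude. RPKM, which is CPM per kilobase of counted exon, was 32.7 ± 2.68 for jun in mutants and 35.6 ± 4.71 in wild type (SD, n = 3 each), the highest of the 10. ier2a followed with 24.8 ± 2.30 RPKM in mutants and 25.9 ± 6.11 RPKM in wild type. junbb stood at 16.8 ± 0.198 RPKM in mutants and 21.6 ± 4.85 RPKM in wild type, and ier2b at 13.7 ± 1.25 and 21.2 ± 7.59 RPKM in mutants and wild type. ier2b, the lowest of these 4, was at the 80.8 percentile of all tested genes.

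A middle group held junba (3.23 ± 1.498 RPKM in mutants, 8.57 ± 4.46 RPKM in wild type) and fosab (2.83 ± 2.17 RPKM in mutants, 4.62 ± 3.37 RPKM in wild type). fosl2 was at 1.95 ± 0.343 RPKM in mutants and 1.62 ± 0.331 RPKM in wild type, and egr1 at 0.907 ± 0.125 and 1.90 ± 0.802 RPKM in mutants and wild type. fosb (0.136 ± 0.0662 RPKM in mutants, 0.177 ± 0.0962 RPKM in wild type) and egr3 (0.0736 ± 0.0564 RPKM in mutants, 0.158 ± 0.0917 RPKM in wild type) closed the order. Between neighbours in this order, ranges over the 6 libraries were apart only for jun over ier2a and for egr1 over fosb. The other neighbours overlapped, but ier2a was above junbb and ier2b above junba in 6 of 6 libraries each.

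**Figure D1:**
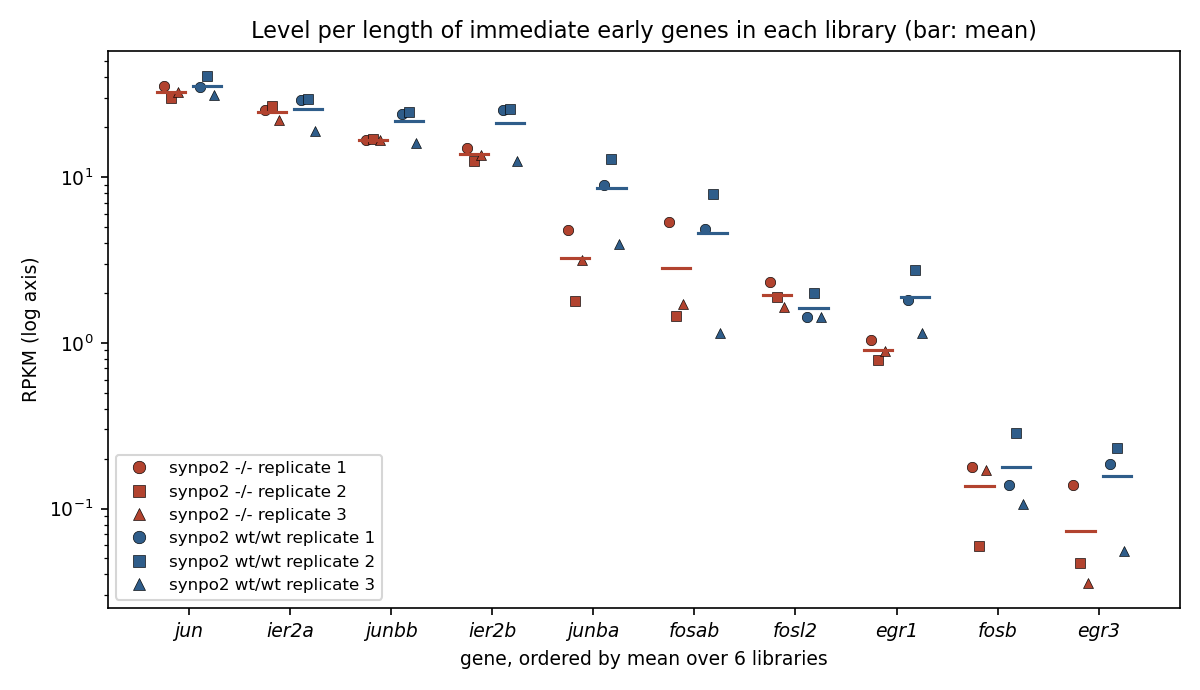
RPKM on a log axis for each of the 10 genes in the 3 synpo2 -/- libraries (red, left) and the 3 synpo2 wt/wt libraries (blue, right), with the mean of each genotype as a bar. jun is highest at 30.0 to 40.7 RPKM and egr3 lowest at 0.0358 to 0.232 RPKM, and wild type replicate 3 (blue triangle) is the lowest wild-type library for 9 genes.

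Between the genotypes, 0 of the 10 genes were called by edgeR's quasi-likelihood test with Benjamini-Hochberg adjustment over all genes, against 0.0735% of the 20415 genes tested (0.0147% called higher and 0.0588% called lower in mutants). DESeq2 called 0 of the 10 as well, against 2.21% of the genes to which it gave an adjusted p (0.706% higher, 1.5% lower). By edgeR 2 of the 10, egr1 and junba, had an unadjusted p under 0.05, both lower in mutants, where 11.2% of all genes were under it, 4.39% as higher and 6.83% as lower in mutants. Of the 10, 9 had a negative log2 fold change, as had 49.1% of all genes tested, and 1 had a positive one, as had 50.9%. The median log2 fold change was -0.50 over the 10 and 0.0068 over all genes. The 10 were measured in the same 6 libraries, so they do not count as separate observations. The median was -0.14 without wild type replicate 2 and -0.75 without wild type replicate 3.

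**Figure D2:**
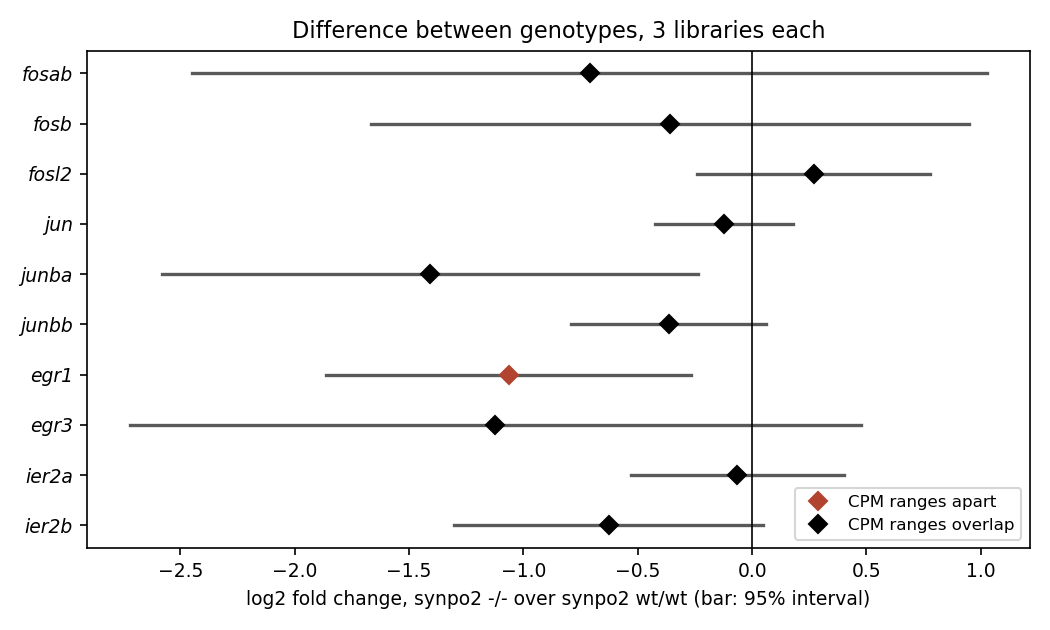
Log2 fold change of each gene, synpo2 -/- over synpo2 wt/wt (diamond), with its 95% interval from edgeR (line, not adjusted for the number of genes). Only the intervals of egr1 (-1.86 to -0.27) and junba (-2.58 to -0.24) lie wholly below 0, and egr1 (red) is the gene whose CPM ranges are apart.

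Among the Fos genes, fosab, the zebrafish c-Fos gene (ENSDARG00000031683, FOS in the name table, GRCz10 chr20:46648591-46650720, minus strand), had the widest spread of the 10 in log2 CPM, with an SD of 1.15 over the 6 libraries. Its level was 9.05, 2.46 and 2.91 CPM in mutant replicates 1 to 3, against 8.20, 13.4 and 1.96 CPM in wild type replicates 1 to 3. High and low libraries occurred in both genotypes, and the ranges overlapped, with 6.84 times between the highest and the lowest library. Its log2 fold change was -0.71 (SE 0.74, 95% interval -2.45 to 1.03), with an adjusted p of 0.742 by edgeR. Without wild type replicate 2 it was -0.06, and without mutant replicate 1 it was -1.54. The counted model of fosab shares 455 of its 1699 exonic bases with an unnamed gene on the opposite strand. How reads in the shared bases were counted is not given.

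fosb (ENSDARG00000055751, chr18:36788762-36793723, plus strand), another Fos partner of Jun, was close to the detection limit. It held 15, 5 and 15 counts in mutant replicates 1 to 3, against 44, 28 and 9 counts in wild type replicates 1 to 3. In CPM this was 0.451, 0.152 and 0.437 in mutants and 0.351, 0.730 and 0.271 in wild type, with overlapping ranges. Its log2 fold change of -0.36 (SE 0.56, adjusted p = 0.829 by edgeR) turned to 0.16 without wild type replicate 2.

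fosl2 (ENSDARG00000040623, chr17:41313752-41329686, plus strand), which encodes Fra-2, was the only one of the 10 with a positive log2 fold change. It was at 13.6, 11.2 and 9.64 CPM in mutant replicates 1 to 3, against 8.38, 11.8 and 8.44 CPM in wild type replicates 1 to 3. The ranges overlapped, since wild type replicate 2 lay above mutant replicates 2 and 3. The difference was 0.27 on the log2 scale (SE 0.22, 95% interval -0.24 to 0.78, adjusted p = 0.667 by edgeR).

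Of the Jun genes, jun (ENSDARG00000043531, chr20:15653154-15655103, plus strand, a single exon block) encodes c-Jun, the transactivating partner in AP-1. It was the steadiest of the 10, at 68.9, 58.5 and 63.7 CPM in mutant replicates 1 to 3, against 67.7, 79.3 and 61.2 CPM in wild type replicates 1 to 3. The log2 fold change was -0.12 (SE 0.13, adjusted p = 0.742 by edgeR), and its 95% interval of -0.43 to 0.18 gives the largest differences these libraries leave room for at that level. Without wild type replicate 2 it was 0.00974.

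junba (ENSDARG00000074378, JUNB in the name table, chr1:51098615-51100171, minus strand) and junbb (ENSDARG00000104773, also JUNB, chr3:7768815-7770219, minus strand) are the zebrafish copies of JunB, which pairs with Fos but activates more weakly than c-Jun. junba was at 7.43, 2.77 and 4.89 CPM in mutant replicates 1 to 3, against 13.9, 20.01 and 6.15 CPM in wild type replicates 1 to 3. Wild type replicates 1 and 2 lay above every mutant, while wild type replicate 3 lay within the mutant range. This was the largest difference of the 10, a log2 fold change of -1.41 (SE 0.50), with an unadjusted p of 0.0247 and an adjusted p of 0.380 by edgeR and 0.108 by DESeq2. It stayed between -1.79 and -0.97 in the 16 alternative analyses.

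junbb was at 23.4, 24.0 and 23.5 CPM in mutant replicates 1 to 3, against 33.7, 34.9 and 22.6 CPM in wild type replicates 1 to 3. The mutants were nearly equal, with a coefficient of variation of 1.18% against 22.4% in wild type, and wild type replicate 3 lay just below them. junbb thus had a log2 fold change of -0.36 (SE 0.18, 95% interval -0.79 to 0.061, adjusted p = 0.498 by edgeR).

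Of the Egr genes, egr1 (ENSDARG00000037421, chr14:21035277-21039140, minus strand), the Krox-24 zinc finger gene and a textbook SRF and ERK target in mammalian cells, was the only one of the 10 whose ranges did not overlap. It was at 3.28, 2.49 and 2.83 CPM in mutant replicates 1 to 3, against 5.71, 8.66 and 3.62 CPM in wild type replicates 1 to 3. Every mutant lay below every wild type, by a small margin between mutant replicate 1 and wild type replicate 3. Ranges were apart for 18.1% of all genes tested, with mutants lower for 9.63% and higher for 8.45%. In counts, egr1 had 109, 82 and 97 in mutants and 715, 332 and 120 in wild type. The log2 fold change was -1.07 (SE 0.34, unadjusted p = 0.0157), and the adjusted p was 0.345 by edgeR and 0.108 by DESeq2. Leaving out wild type replicate 2 brought it to -0.68, the smallest of the 16 alternative values, and leaving out wild type replicate 3 to -1.32, the largest.

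egr3 (ENSDARG00000089156, chr8:50738574-50744862, plus strand), a relative of egr1 known from neural and muscle spindle development in mammals, was the lowest of the 10 per length. It held 15, 5 and 4 counts in mutant replicates 1 to 3, against 76, 29 and 6 counts in wild type replicates 1 to 3. In CPM these were 0.451, 0.152 and 0.117 in mutants and 0.607, 0.756 and 0.181 in wild type. Mutant replicate 1 lay between the wild-type libraries, and the other 2 mutants lay below all of them. This gave a log2 fold change of -1.12 (SE 0.68, 95% interval -2.72 to 0.47, adjusted p = 0.570 by edgeR), and it was -1.93 without mutant replicate 1.

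The Ier2 genes encode small nuclear proteins that are known in zebrafish for a part in left-right patterning through FGF signalling. ier2a (ENSDARG00000099195, chr3:33629941-33630906, plus strand) was at 24.6, 25.8 and 21.5 CPM in mutant replicates 1 to 3, against 28.2, 28.6 and 18.2 CPM in wild type replicates 1 to 3. The mutants lay inside the wild-type range. The log2 fold change was -0.06 (SE 0.20, 95% interval -0.53 to 0.40, adjusted p = 0.919 by edgeR), and it was above 0 without mutant replicate 3 (0.00946), wild type replicate 1 (0.032) or wild type replicate 2 (0.069).

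ier2b (ENSDARG00000086881, chr11:30791618-30931872, minus strand) was at 11.2, 9.30 and 10.1 CPM in mutant replicates 1 to 3, against 18.8, 19.2 and 9.23 CPM in wild type replicates 1 to 3. Wild type replicates 1 and 2 stood apart from the other 4 libraries, and wild type replicate 3 was the lowest of all 6. For ier2b the log2 fold change was -0.63 (SE 0.29, 95% interval -1.30 to 0.047, adjusted p = 0.474 by edgeR). Its long span comes from a distant block in the gene model, of which 23 bases are shared with an exon of stx10 on the opposite strand.

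The order of the libraries was also compared among the 10 genes. As log2 CPM centred on each gene's mean over the 6 libraries, their average was 0.15, -0.55 and -0.35 in mutant replicates 1 to 3, against 0.39, 0.78 and -0.42 in wild type replicates 1 to 3. Wild type replicate 2 was the highest library for 9 of the 10 genes, fosl2 being the exception, where 15.9% of all tested genes were highest in it. Wild type replicate 3 was the lowest wild-type library for 9 of the 10, against 22.8% of all genes, and fosl2 was again the exception. The 7 yolk syncytial layer genes were also all lowest in that library within wild type. So were 3 of 4 myeloid, 3 of 6 epidermis, 3 of 9 neuron and 1 of 5 notochord and hatching gland markers. None of the 13 fast muscle, 5 red blood cell and 3 tested lens markers were. The summed level of the 7 yolk syncytial layer genes was 10601, 3558 and 972 CPM in mutant replicates 1 to 3, against 1741, 3781 and 1361 CPM in wild type replicates 1 to 3. Within wild type this sum was highest in replicate 2. Over all 6 libraries it was highest in mutant replicate 1, and 0 of the 7 genes were highest in wild type replicate 2. The part of yolk content in the values was not tested. The lowest of all 6 libraries was wild type replicate 3 for 4 of the 10, mutant replicate 2 for 4, mutant replicate 3 for egr3 and wild type replicate 1 for fosl2. In wild type replicate 3 itself, 4 genes were within the mutant range (fosb, egr3, jun and junba), 5 were below it, and egr1 alone was above it. Wild type replicates 1 and 2 both exceeded every mutant for 6 genes (egr1, egr3, junba, junbb, ier2a and ier2b), against 12.1% of all genes. These patterns were picked after the values were seen and are descriptions of the 6 libraries.

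**Figure D3:**
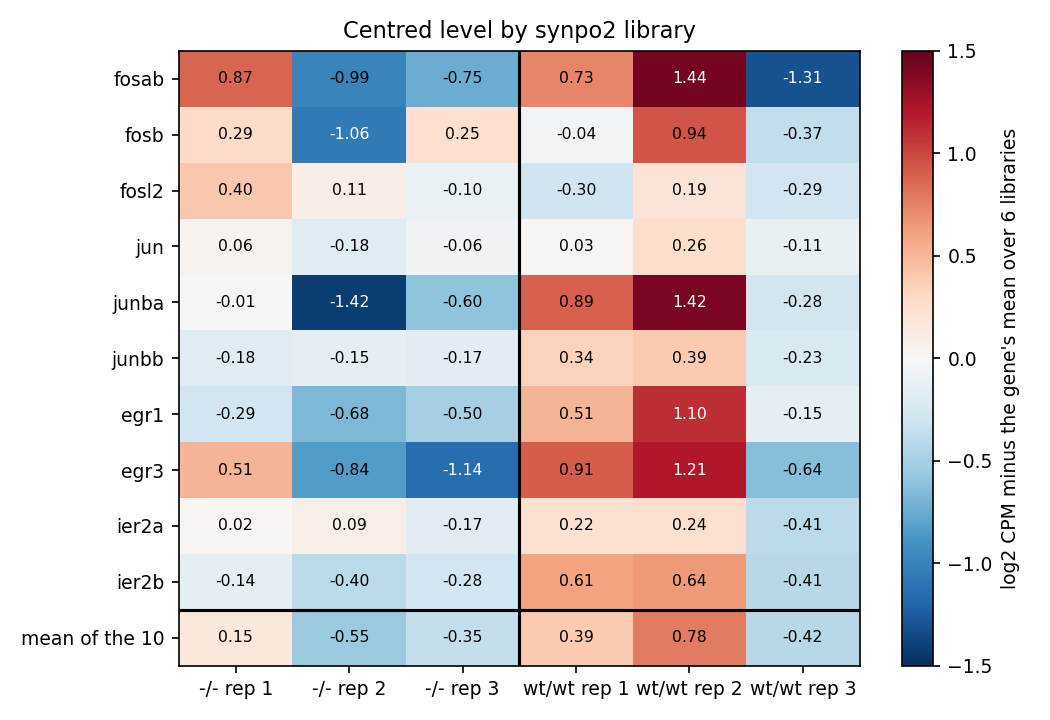
Log2 CPM of each gene minus its mean over the 6 libraries, for synpo2 -/- libraries (left of the line) and synpo2 wt/wt libraries (right), with the average of the 10 genes in the bottom row. The average is highest in wild type replicate 2 (0.78) and lowest in mutant replicate 2 (-0.55), and wild type replicate 3 (-0.42) lies between mutant replicates 2 and 3.

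How far a gene moved between libraries differed within the set. The highest library exceeded the lowest by 7.23 times for junba, 6.84 times for fosab and 6.49 times for egr3, but by 1.36 times for jun, 1.55 times for junbb and 1.57 times for ier2a. Relative to the 1000 tested genes nearest in mean level, the biological coefficient of variation fitted by edgeR was at the 98.0 percentile for fosab and the 92.4 percentile for junba, and at the 48.3 percentile for jun. Mutants had the smaller coefficient of variation for 8 of the 10 genes, fosab and egr3 being the exceptions, as they had for 61.5% of all genes.

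Ratios between related genes within a library do not depend on how libraries were scaled. jun exceeded the sum of junba and junbb per length by 1.65, 1.59 and 1.64 times in mutant replicates 1 to 3, against 1.05, 1.08 and 1.57 times in wild type replicates 1 to 3. ier2a exceeded ier2b by 1.69, 2.13 and 1.63 times in mutants, against 1.16, 1.14 and 1.51 times in wild type. Neither ratio overlapped between the genotypes, with wild type replicate 3 the nearest to the mutants in both. The summed Egr level, which does depend on scaling, did not overlap either, at 1.18, 0.836 and 0.931 RPKM in mutants and 1.99, 2.97 and 1.201 RPKM in wild type. This sum largely restates egr1, whose mean was 0.907 of 0.981 RPKM in mutants and 1.90 of 2.06 RPKM in wild type. For both ratios and this sum the exact permutation p was 0.1, two-sided, the smallest that 3 libraries against 3 can give. Ranges that do not overlap always give this p, so it adds nothing to the ranges. The p was 0.3 when adjusted over the 12 sums and ratios computed.

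The other sums and ratios overlapped, except the share of jun in the summed Jun level, which restates the first ratio. junbb exceeded junba by 3.50, 9.60 and 5.33 times in mutants and by 2.69, 1.93 and 4.07 times in wild type (exact permutation p = 0.2). fosab over fosl2 was 2.30, 0.766 and 1.05 in mutants, against 3.39, 3.95 and 0.805 in wild type, so that the more abundant of these Fos genes was not the same in all libraries. The summed Jun level was 52.7 ± 3.99 RPKM in mutants and 65.8 ± 13.6 RPKM in wild type, and the summed Fos level was 4.91 ± 2.52 and 6.42 ± 3.74 RPKM in mutants and wild type (SD, n = 3 each).

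**Figure D4:**
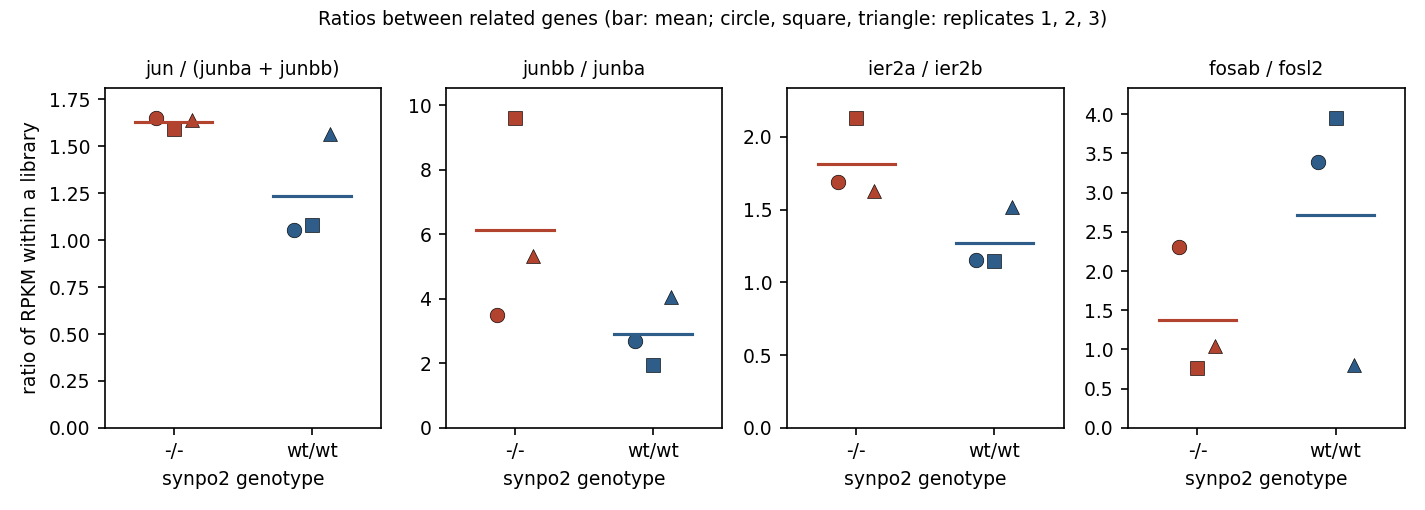
Ratio of RPKM between related genes within each library, for synpo2 -/- (red, left) and synpo2 wt/wt (blue, right), with the mean as a bar and axes from 0. For jun over both JunB copies and for ier2a over ier2b the mutants lie above all wild-type libraries, with wild type replicate 3 (triangle) at 1.57 and 1.51.

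Close relatives were taken for their family alone, outside the rule for named genes. They are not complete, since fosl1b was not among those taken. FOSL1 (ENSDARG00000015355), which encodes Fra-1, was at 14.4, 3.83 and 3.55 CPM in mutant replicates 1 to 3 and at 7.71, 8.37 and 1.45 CPM in wild type replicates 1 to 3. egr4 was at 1.14, 0.182 and 0.146 CPM in mutants and 0.942, 0.887 and 0.241 CPM in wild type. Both were high in mutant replicate 1 and wild type replicates 1 and 2, like fosab and egr3. JUND was at 7.22, 8.82 and 10.2 CPM in mutant replicates 1 to 3 and at 13.4, 10.5 and 8.32 CPM in wild type replicates 1 to 3. It was lowest in mutant replicate 1, unlike fosab and egr3. Its wild type replicates 1 and 2 lay above every mutant and replicate 3 was the lowest of wild type, as for egr1 and junba. EGR2, the rhombomere gene Krox-20 (14.3 ± 1.90 CPM in mutants, 13.3 ± 2.53 CPM in wild type), was arranged in neither way, nor was egr2a (0.916 ± 0.0814 CPM in mutants, 0.974 ± 0.214 CPM in wild type). Adjusted p values by edgeR were 0.895 for FOSL1, 0.834 for egr4, 0.650 for JUND, 0.857 for EGR2 and 0.915 for egr2a. fosaa, at 0.117 to 0.361 CPM in mutants and 0.144 to 0.522 CPM in wild type, did not pass the filter.

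Among 43 tested genes of a wider list of other immediate early genes, 0 were called by edgeR, 19 had a positive and 24 a negative log2 fold change, and the median was -0.09. At an unadjusted p under 0.05 by edgeR, 1 was higher and 5 were lower in mutants, where 4.39% and 6.83% of all genes were. DESeq2 called 1 higher and 3 lower, against 0.706% and 1.5% of the genes to which it gave an adjusted p. The leading genes were copies of KLF11, a TGF-beta-inducible Krüppel-like repressor. KLF11 on chromosome 17 (ENSDARG00000013794) was at 6.76 ± 0.392 CPM in mutants and 12.9 ± 0.918 CPM in wild type, and KLF11 on chromosome 20 (ENSDARG00000030844) at 5.21 ± 0.948 and 12.8 ± 2.503 CPM in mutants and wild type. Their adjusted p values were 0.148 and 0.150 by edgeR, and 5.39e-06 and 4.23e-05 by DESeq2. klf2a, a flow-responsive Krüppel-like factor gene, was at 10.3 ± 0.896 CPM in mutants and 6.50 ± 0.539 CPM in wild type (adjusted p = 0.292 by edgeR and 0.0166 by DESeq2). The polo-like kinase gene PLK2 (ENSDARG00000090752) was at 5.31 ± 0.376 CPM in mutants and 8.92 ± 1.30 CPM in wild type (adjusted p = 0.292 by edgeR and 0.0174 by DESeq2). Over the list, ranges were apart for 2 genes with mutants higher and for 6 with mutants lower, of 43, where 8.45% and 9.63% of all genes were. Wild type replicate 3 was the lowest wild-type library for 18 of the 43, where it was for 22.8% of all genes.

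SRF itself and its cofactors were measured in the same libraries. The SRF copy on chromosome 22 (ENSDARG00000053918) was at 13.3, 13.6 and 12.9 CPM in mutant replicates 1 to 3 and at 4.50, 12.8 and 11.8 CPM in wild type replicates 1 to 3. The copy on chromosome 13 (ENSDARG00000102867), named after its values were seen, was at 26.8, 33.5 and 26.6 CPM in mutants and 9.32, 30.8 and 33.8 CPM in wild type. Both copies were lowest in wild type replicate 1, the deepest library, at 4.50 and 9.32 CPM, while no other library was below 11.8 and 26.6 CPM. Their log2 fold changes were 0.45 (SE 0.37) and 0.24 (SE 0.43), with adjusted p values of 0.669 and 0.856 by edgeR. MRTFA (ENSDARG00000075867), an actin-sensing SRF cofactor, was at 4.06 ± 0.581 CPM in mutants and 6.11 ± 2.41 CPM in wild type. Its relative mrtfab was at 43.8 ± 2.58 and 49.1 ± 4.36 CPM in mutants and wild type. The ranges of both overlapped, and their adjusted p values by edgeR were 0.554 and 0.612. MRTFA too was lowest in wild type replicate 1, at 3.39 CPM.

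Cytoskeletal and other targets that SRF shares with myocardin-related factors were also counted. Of 28 tested, 0 were called by edgeR, with 11 positive and 17 negative log2 fold changes and a median of -0.11. At an unadjusted p under 0.05 by edgeR, 1 was higher and 6 were lower, where 4.39% and 6.83% of all genes were. DESeq2 called 4 lower, against 1.5% of the genes to which it gave an adjusted p. Both ACTA1 copies and actc1b, named for standing in both lists, were among the 6 and also among the fast muscle markers. acta2, smooth muscle actin, was at 0.301, 0.486 and 0.524 CPM in mutant replicates 1 to 3 and at 2.02, 2.01 and 1.72 CPM in wild type replicates 1 to 3 (adjusted p = 0.0933 by edgeR and 3.78e-05 by DESeq2). VCL (ENSDARG00000044968), a vinculin gene, was at 17.4 ± 6.18 CPM in mutants and 36.3 ± 8.61 CPM in wild type, and THBS1 (ENSDARG00000103775), a thrombospondin gene, at 6.17 ± 1.33 and 11.1 ± 2.01 CPM in mutants and wild type. CCN2 (ENSDARG00000042934), a matricellular gene, was at 140 ± 11.1 CPM in mutants and 105 ± 6.73 CPM in wild type. Ranges were apart for 1 of the 28, CCN2, with mutants higher, where 8.45% of all genes were. They were apart with mutants lower for 6, acta2, VCL and THBS1 among them, where 9.63% of all genes were. Several of these genes are also expressed in striated muscle, whose markers were lower in sum in mutants, and the part of that in these values was not tested.

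Transcripts of ERK feedback genes and of MAP kinases showed small median differences, and kinase activity was not measured. Of 17 ERK feedback genes, 0 were called by edgeR or DESeq2, with 10 positive log2 fold changes and a median of 0.10. By edgeR 1 of them had an unadjusted p under 0.05, where 11.2% of all genes had. Ranges were apart for 3 of the 17 with mutants higher and 1 with mutants lower, against 8.45% and 9.63% of all genes. The ERK phosphatase gene DUSP6 was at 154 ± 4.94 CPM in mutants and 128 ± 7.33 CPM in wild type, with ranges apart (log2 fold change 0.27, adjusted p = 0.370 by edgeR). The feedback inhibitor SPRY4 was at 44.5 ± 4.202 CPM in mutants and 31.5 ± 9.26 CPM in wild type, and wild type replicate 1, at 21.0 CPM, was the lowest library. Of 17 MAP kinases and their upstream kinases, 0 were called by edgeR or DESeq2 and 0 had an unadjusted p under 0.05 by edgeR, 13 log2 fold changes were positive, and the median was 0.14. MAPK14 (ENSDARG00000000857), a p38 kinase gene, was at 85.5 ± 1.87 CPM in mutants and 74.2 ± 5.40 CPM in wild type (adjusted p = 0.482 by edgeR). The ERK1 gene MAPK3 was at 48.1 ± 6.59 and 36.4 ± 13.1 CPM in mutants and wild type (adjusted p = 0.600 by edgeR). Its ranges overlapped, and wild type replicate 1, at 23.0 CPM, was again the lowest library.

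Genes tied to wounding and to handling stress were examined, since immediate early genes answer to both. Among 19 tested AP-1 partners, repressors and wound or stress targets, 0 were called by edgeR or DESeq2 and the median log2 fold change was 0.16. At an unadjusted p under 0.05 by edgeR, 0 were higher and 2 were lower, where 4.39% and 6.83% of all genes were. mmp13a, a collagenase gene and AP-1 target, was at 10.6, 5.87 and 2.74 CPM in mutant replicates 1 to 3 and at 3.88, 2.32 and 0.784 CPM in wild type replicates 1 to 3. HMOX1 (ENSDARG00000027529), the haem oxygenase gene, was at 33.8 ± 32.0 CPM in mutants, highest in replicate 1, and at 14.1 ± 8.03 CPM in wild type. NAB1 (ENSDARG00000042940), which encodes a corepressor of Egr proteins, was at 0.775 ± 0.145 CPM in mutants and 1.45 ± 0.332 CPM in wild type. Wild type replicate 3 was the lowest wild-type library for 5 of the 19, mmp13a and HMOX1 among them, where it was for 22.8% of all genes, and it was the highest for NAB1.

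Of 16 heat shock and handling stress genes, 0 were called by edgeR, 5 had a positive and 11 a negative log2 fold change, and the median was -0.24. At an unadjusted p under 0.05 by edgeR, 1 was higher and 4 were lower, where 4.39% and 6.83% of all genes were. DESeq2 called 1, higher in mutants, against 0.706% of the genes to which it gave an adjusted p. This was SERPINH1 on chromosome 10 (ENSDARG00000075954), a collagen chaperone gene, at 286 ± 27.1 CPM in mutants and 189 ± 16.3 CPM in wild type (adjusted p = 0.197 by edgeR and 0.00716 by DESeq2). The other SERPINH1 copy, on chromosome 15 (ENSDARG00000019949), was at 93.0 ± 9.10 CPM in mutants and 163 ± 70.09 CPM in wild type, with a log2 fold change of -0.81 (adjusted p = 0.370 by edgeR and 0.159 by DESeq2). HSPA5 (ENSDARG00000103846), which encodes an endoplasmic reticulum chaperone, was at 225 ± 18.5 CPM in mutants and 309 ± 26.7 CPM in wild type (adjusted p = 0.295 by edgeR and 0.0623 by DESeq2). The ranges of both were apart, with mutants lower. The stress-inducible hsp70.3 was at 2.80, 3.43 and 3.12 CPM in mutant replicates 1 to 3 and at 12.6, 4.15 and 6.69 CPM in wild type replicates 1 to 3. Its ranges were apart with mutants lower (adjusted p = 0.337 by edgeR). Of the 16, ranges were apart for 1 with mutants higher and 3 with mutants lower, against 8.45% and 9.63% of all genes. Wild type replicate 3 was the lowest wild-type library for 6 of the 16, where it was for 22.8% of all genes. HSPA5 and both SERPINH1 copies were among the 6, while hsp70.3 was lowest in replicate 2.

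The genes most like the average centred profile of the 10 were found by the root mean square difference in log2 CPM over the 6 libraries, among 16332 named genes at a mean of at least 1 CPM. They were tent5ba (0.158), a non-canonical poly(A) polymerase gene, the presenilin gene PSEN2 (0.200), zp2.2 (0.200), an egg coat gene, h1m (0.202), a maternal linker histone gene, and prg4a (0.217), a proteoglycan gene. On the same measure ier2b (0.174) and egr1 (0.265) were the members closest to their own average, and fosab (0.606) the farthest. Each member is part of that average, so its distance is not directly comparable with that of a gene outside the set. The genes outside the set were picked for their likeness over these 6 libraries, so their direction is not a separate observation. tent5ba was at 35.0 CPM in mutants and 48.2 CPM in wild type on average, with a log2 fold change of -0.46 (adjusted p = 0.584 by edgeR). In mutants and wild type, PSEN2 was at 9.95 and 13.2 CPM and prg4a at 2.07 and 3.10 CPM on average. zp2.2 (0.984 and 1.51 CPM) and h1m (1.05 and 1.51 CPM) lay near the cut-off of 1 CPM. Between members the closest pair was junbb and ier2a (0.168), and fosab was closest to egr3 (0.373).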

How the data were processed

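RNA from whole embryos was measured in 6 libraries, grouped by the genotype in the sample titles. The submitters' processing notes name the GRCz10 build, STAR 2.5.2b and Trimmomatic 0.36. The authors deposited raw counts per Ensembl gene, with exonic length per the file headers. The program, strand setting and treatment of multiply mapped reads in counting are not given in the labels or file headers, so copies and overlapping genes may share reads. The replicates are called biological by the series design text, and no pair of libraries agreed within sampling noise.

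Symbols came from a name table (25752 of 31484 IDs). Members were matched by symbol ignoring case, JUNB copies by the chromosome RefSeq gives them, and fosab through its RefSeq synonym fos, since the name left by dropping its final letter was not found. Genes were kept with filterByExpr, scaled by TMM and tested with edgeR 4.0.16 (R 4.3.3, robust quasi-likelihood F test, two-sided, no covariate), with adjusted p under 0.05 called. CPM are counts over TMM-adjusted library size, RPKM divide these by counted length, ± is the SD, and log2 CPM used a prior count of 2. The SE is the log2 fold change over the square root of F. Code was tested on simulated data.

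Named genes were the 10 members, up to 4 genes per list by smallest p at a mean of at least 1 CPM, and the 5 most alike. Members and lists were chosen with earlier results of these data known. Summary counts for the list with SRF and its cofactors, and 1 of its named genes, are not reported here. Alternatives were other scalings and filters, DESeq2 1.42.0, limma-voom (limma 3.58.1), dispersion fitted without robustness, a threshold of 0.01, the replicate number as a block, a thinned wild type replicate 1, and each library left out.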

Additional observations from a re-analysis of the deposited data

How the results depend on the processing

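No member was called in any of the alternatives run, and 153 of 158 alternative values kept the direction. All 158 come from the same libraries, so they are not separate observations. The 5 that turned were all close to 0: without wild type replicate 2, fosb was at 0.155, jun at 0.00974 and ier2a at 0.0693 (without wild type replicate 3 they were at their lowest, -0.595, -0.206 and -0.247), and ier2a was at 0.00946 without mutant replicate 3 and at 0.0324 without wild type replicate 1. prg4a, picked for its likeness to the members' average profile, turned to 0.0372 without wild type replicate 2 and was at -0.918 without wild type replicate 3. Since it was picked on the same libraries, this is not a separate observation. The median log2 fold change of the 10 ran from -0.745 to -0.144 over the left-out libraries. Over all genes, the 15 calls became 44 with no filter, 8 with at least 1 CPM in 3 libraries, 450 with DESeq2 and 3 at a threshold of 0.01, and 0 to 16 with a library left out. DESeq2 also called 4 of the 43 other immediate early genes, 4 of the 28 SRF targets shared with myocardin-related factors and 1 of the 16 heat shock genes. It called 2.21% of all genes to which it gave an adjusted p. The cause was not tested. With the replicate block, 0 genes were called and the median of the 10 was -0.43. Deviations from the genotype mean correlated at -0.233, -0.097 and 0.182 between same-numbered libraries, and at -0.309 to 0.366 between differently numbered ones. The labels do not say whether same-numbered libraries were paired, and so few correlations cannot decide it. fosb and egr3 did not pass the stricter filter. Both rest on few counts per library, at 5 to 44 for fosb and 4 to 76 for egr3.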
